A study of Eriocheir sinensis with 6 samples.

Results

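The receptor gene moody of the Chinese mitten crab Eriocheir sinensis was examined through every open-chromatin region that the deposited table links to it. The table names the gene only by its identifier, evm.TU.CM024100.1.415, and the name moody is the one the study gives to that identifier. Selecting the rows with this identifier returned 22 of the 104657 regions, and the table links its regions to 17908 genes in all. In the chromatin assay used here (ATAC-seq), the Tn5 transposase cuts DNA that is not covered by nucleosomes, and stretches where cuts pile up are called as peaks. The authors merged the peaks of all libraries into a single set, and a merged peak is linked to the gene whose start lies nearest.

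The libraries came from muscle of crabs at the post-molt stage, when the old shell has been shed, and at the pre-molt stage, when the next shed is being prepared. There were 3 post-molt and 3 pre-molt libraries, and the study's methods state that each muscle sample came from 1 juvenile crab, with walking-leg muscle as the tissue. All crabs were farmed animals kept at a single temperature, and the labels give no treatment, genotype or strain that separates the stages. Reads in merged peaks numbered from 10992785 to 16985168 per library, with the highest total in pre-molt replicate 2. That library also had the lowest scaling factor, 0.841 against 1.002 to 1.089 in the other 5. Because the deposited identifiers carry no gene names, the muscle label was not checked against marker genes. Whole tissue holds several cell types, and fewer cells of a type and less open chromatin per cell cannot be told apart in such libraries.

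G protein-coupled receptors pass a signal from outside the cell to G proteins at the inner side of the membrane. In Drosophila, Moody is such a receptor of the glia that wrap the nervous system, where it signals through G proteins and the regulator Loco. There it is needed for the septate junctions and the cortical actin that seal the blood-brain barrier. In muscle, motor nerves with their glia run among the fibres, and the cell type that uses the gene in the crab is not given by these data. For moody the study refers to an expression assay in its authors' earlier work and did not repeat it. To identify the transcript behind the name, the pair of primers that the study lists for moody is shown here. They are printed in lower case from the 5′ end, with no base marked, and were not placed on the genome.
moody forward primer: caaaacagggtgcgttgagg
moody reverse primer: aagccttgccctgtaccttc

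The gene lies on the minus strand of sequence CM024100.1, from 16787866 to 16867427, and is 79.6 kb long with 8 exons and 7 introns in the authors' annotation. Transcription therefore starts at the higher coordinate and runs downwards. Of the 22 linked peaks, 2 were of the promoter class (P1 and P2), 9 lay in introns (B1 to B9, numbered from the start into the gene) and 11 lay upstream in intergenic DNA (F1 to F11, numbered outwards). The introns with linked peaks were the first, with 4, and the second, with 5. The upstream peaks lay between 18.5 and 67.2 kb from the start. A stretch of 17.9 kb without any merged peak separated P2 from F1, and after F11 the next merged peak followed at a gap of 21.3 kb. Peak widths ran from 200 to 1622 bp and summed to 11588 bp. Mean reads per library ran from 15 in B5 to 369 in F4. With 22 peaks, moody had more linked peaks than 96.2% of the linked genes, whose median was 3.

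Between the stages, peaks inside the gene and upstream of it held fewer reads post-molt, while neither promoter peak changed by the test. Of the 22 linked peaks, 11 fell post-molt and 0 rose at an adjusted p below 0.05 in edgeR's quasi-likelihood test over all merged peaks. In the same fit 3.86% of all merged peaks fell and 6.08% rose. The study kept moody for changed peaks and expression between the post-molt and inter-molt stages, so its choice rested partly on post-molt accessibility. The 11 comprised 6 of the 9 intronic peaks, against 4.47% of all intronic merged peaks, and 5 of the 11 upstream peaks, against 3.87% of all distal intergenic merged peaks. At the promoter 0 of 2 fell, against 3.54% of promoter-class peaks. No linked peak rose and no promoter peak changed at an unadjusted p below 0.05 either (0 by edgeR, 0 by DESeq2 and 0 by limma). The median log2 change, post-molt over pre-molt, was -1.17 over the linked peaks and -0.03 over all merged peaks, and 21 of the 22 values were negative. Where the 3 post-molt values all lay below the 3 pre-molt values, the stages did not overlap, which held for 14 of the 22 peaks and for 12.1% of all merged peaks. These 14 included all 11 peaks that fell, and the other 3 (B5, F7 and F11) did not pass the test.

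**Figure D1:**
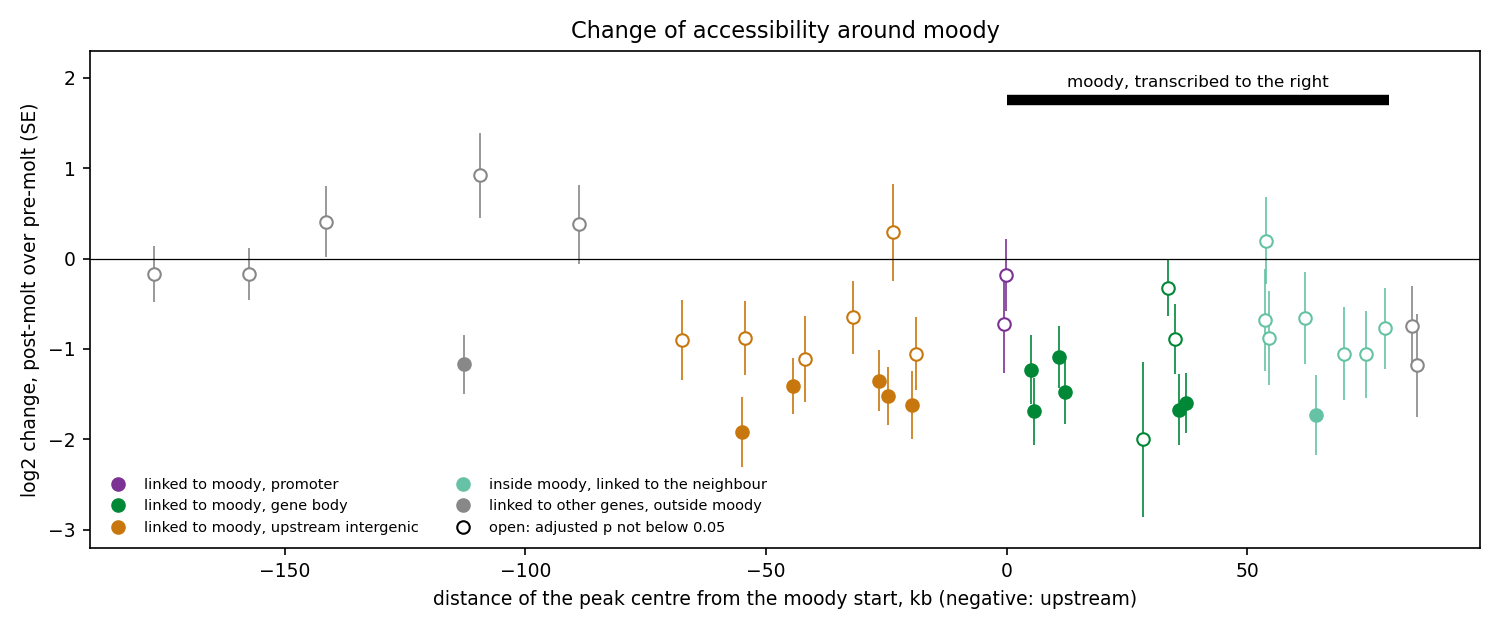
The merged peaks around moody are plotted by distance of their centre from the start of the gene (x axis, kb, upstream at negative values) and by log2 change, post-molt over pre-molt, with its SE (y axis), each point being 1 merged peak and filled where edgeR's test was passed. The 11 linked peaks that fell lie on both sides of the start, from F10 centred 55 kb upstream to B9 centred 37.3 kb inside the gene, and the promoter peaks P1 and P2 lie nearer to 0, at -0.18 and -0.72.

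The promoter peaks come first, since they mark the place where transcription begins. P1, at 16867321 to 16867655, covered the start itself and had 4.13, 3.94 and 3.26 CPM (reads in the peak scaled to a library total common to all libraries) in the post-molt libraries, against 5.6, 2.1 and 5.22 CPM in the pre-molt libraries. The stages overlapped, with the lowest value of all in pre-molt replicate 2. Its log2 change was -0.18 (SE 0.40, edgeR adjusted p = 0.833), with a 95% interval of -1.02 to 0.65. P2, at 16867764 to 16868031, began 337 bp upstream of the start and had 2.24, 1.58 and 2 CPM post-molt, against 6.82, 1.68 and 1.13 CPM pre-molt. A single pre-molt library stood above the rest, and the other pre-molt values lay within or below the post-molt range. The log2 change of P2 was -0.72 (SE 0.55, edgeR adjusted p = 0.463), with a 95% interval of -1.86 to 0.41. Both intervals overlap that of the gene-body sum given further on, -1.80 to -0.64, so an absence of change at the promoter was not shown.

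The promoter was also not the most open place of the locus. Levels of different peaks were compared by fold enrichment, the authors' ratio of reads per base of a peak to a uniform background over the genome. P1 had a fold enrichment of 3.92 ± 0.47 post-molt and 4.44 ± 1.67 pre-molt (SD, n = 3 each), which placed its mean at the 35.6th percentile of promoter-class peaks. P2 reached 2.57 ± 0.462 post-molt and 4 ± 3.34 pre-molt, at the 19th percentile of that class. Averaged over the 6 libraries, the highest fold enrichment among linked peaks belonged to the upstream peak F4, with 5.81 ± 0.847 post-molt and 17.4 ± 7.34 pre-molt, at the 93.1st percentile of distal and downstream peaks. Promoter peaks took 4.67%, 5.14% and 4.37% of all moody-linked reads in the post-molt libraries, against 4.35%, 0.992% and 2.96% in the pre-molt libraries.

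All 4 peaks of the first intron fell. B1, at 16862124 to 16862533 and 4.89 kb into the gene, had 4.39, 5.2 and 2.17 CPM post-molt, against 9.49, 11.4 and 6.79 CPM pre-molt (log2 change -1.23, SE 0.38, edgeR adjusted p = 0.0385). B2, at 16861574 to 16861972, had 2.24, 2.68 and 2.26 CPM post-molt, against 7.55, 9.8 and 5.83 CPM pre-molt (log2 change -1.69, SE 0.37, edgeR adjusted p = 0.00541). In both peaks every post-molt library lay below every pre-molt library. At B2 the authors' peak lists held a peak in 0 of the 3 post-molt libraries and in 3 of the 3 pre-molt libraries, whereas at B1 they held it in 2 and in 3.

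The next pair of first-intron peaks lay 10.7 and 11.5 kb into the gene and was called as a peak in all 6 libraries. B3, at 16856099 to 16856774, had 14.4, 9.77 and 13.1 CPM post-molt, against 24.7, 37.7 and 16.9 CPM pre-molt (log2 change -1.09, SE 0.34, edgeR adjusted p = 0.0403). B4, at 16854768 to 16855913, was the broadest peak inside the gene with 1146 bp and had 16.4, 8.91 and 17.5 CPM post-molt, against 48.4, 47.7 and 22.6 CPM pre-molt (log2 change -1.48, SE 0.35, edgeR adjusted p = 0.00975). B4 was 2.78-fold lower post-molt, and in both peaks the stages did not overlap. The values of B1 and B3 lay close to the threshold, and each of the 2 calls was lost under 7 of 13 other settings, with adjusted p up to 0.194 for B1 and 0.206 for B3. B4 was lost only without post-molt replicate 2, the library with its lowest value (adjusted p = 0.09).

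The second intron held both peaks that fell and peaks that did not. B9, at 16829757 to 16830573 and 36.9 kb into the gene, had 10.8, 9.62 and 9.02 CPM post-molt, against 25.6, 42 and 21.7 CPM pre-molt. It was 3.03-fold lower post-molt (log2 change -1.60, SE 0.33, edgeR adjusted p = 0.00355), and its post-molt values differed little among themselves. B8, at 16831429 to 16831832, had 5.94, 3.07 and 4.18 CPM post-molt, against 7.79, 22 and 12.2 CPM pre-molt (log2 change -1.67, SE 0.39, edgeR adjusted p = 0.00849). The pre-molt spread of B8 was wide, with pre-molt replicate 2 highest. Its call was lost without post-molt replicate 2 and without pre-molt replicate 2, where the edgeR adjusted p reached up to 0.0774.

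B6, at 16833663 to 16834037, had the log2 change nearest to 0 among the 9 linked intronic peaks. It had 12.5, 8.67 and 7.6 CPM post-molt, against 11.2, 13.9 and 10.7 CPM pre-molt, and the stages overlapped. This log2 change was -0.32 (SE 0.32, edgeR adjusted p = 0.605, 95% interval -0.98 to 0.35), although the peak was strong, with a fold enrichment of 8.79 ± 2.41 post-molt and 11.3 ± 2.88 pre-molt (SD, n = 3 each), and was called in all 6 libraries. B7, at 16832185 to 16832547, had 9.47, 3.07 and 5.93 CPM post-molt, against 9.01, 16.2 and 8.87 CPM pre-molt (log2 change -0.89, SE 0.39, edgeR adjusted p = 0.161). B6 to B9 thus lay within a stretch of 4.28 kb, with the 2 that fell farther from the start than the 2 that did not pass. B5, at 16838956 to 16839155, was the shallowest linked peak, with 0, 8 and 9 reads post-molt, against 25, 32 and 16 reads pre-molt. A count of 0 allows up to 3 reads, and at this depth its log2 change of -2.0 (SE 0.86) did not pass the test (edgeR adjusted p = 0.153).

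**Figure D2:**
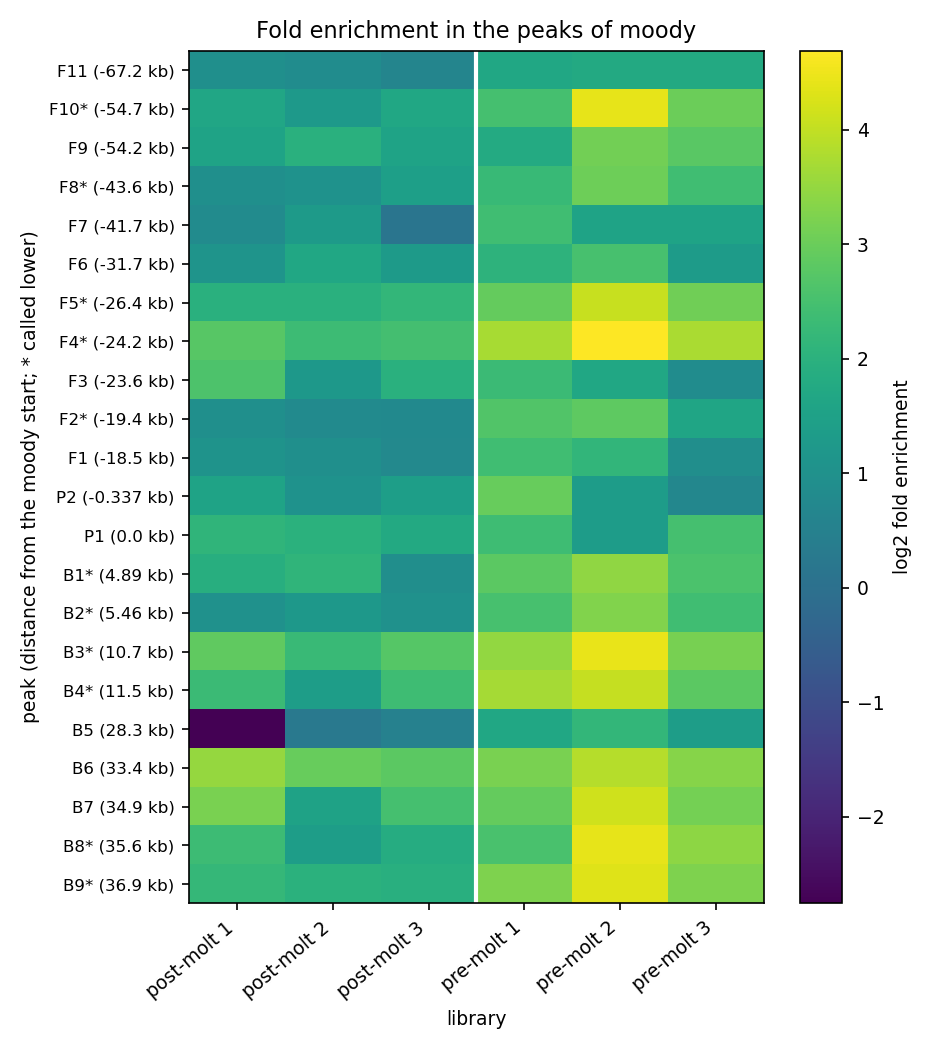
Each row is a moody-linked peak in order along the sequence and each column a library, post-molt libraries left of pre-molt libraries, with the colour giving log2 fold enrichment. The rows of B1 to B4, B8, B9, F2, F4, F5, F8 and F10 (starred) are darker, that is lower, in all 3 post-molt columns than in any pre-molt column, while P1 and B6 hold overlapping values, and the darkest cell is B5 in post-molt replicate 1, with 0 reads.

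Upstream of the gene the widest and deepest peaks fell as well. F4, at 16891673 to 16892557 and 24.2 kb upstream, had the most reads of all linked peaks, with 17.3, 13.5 and 14.2 CPM post-molt, against 37.7, 58.2 and 32.9 CPM pre-molt. It was 2.86-fold lower post-molt (log2 change -1.52, SE 0.32, edgeR adjusted p = 0.00404). At its highest summit the authors' peak lists gave a fold enrichment of 5.54, 4.68 and 6.12 post-molt, against 8.53, 16.5 and 11.5 pre-molt, again without overlap. F8, at 16910991 to 16912612, was the widest linked peak with 1622 bp and had 8.95, 9.77 and 12.9 CPM post-molt, against 25.6, 34.3 and 24.3 CPM pre-molt (log2 change -1.41, SE 0.31, edgeR adjusted p = 0.006).

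F10, at 16922170 to 16922718 and 54.7 kb upstream, showed the largest fitted fall among the 11 peaks that passed, 3.78-fold. It had 4.91, 3.78 and 5.1 CPM post-molt, against 10.1, 29.5 and 12.4 CPM pre-molt (log2 change -1.92, SE 0.39, edgeR adjusted p = 0.00338). The size of this fall leaned on pre-molt replicate 2, without which the log2 change was -1.28, still past the threshold. F2, at 16886779 to 16887311, had 2.93, 2.68 and 2.59 CPM post-molt, against 11, 9.73 and 4.52 CPM pre-molt (log2 change -1.62, SE 0.38, edgeR adjusted p = 0.00922). F5, at 16893831 to 16894222, had 4.39, 4.49 and 5.1 CPM post-molt, against 9.82, 16.6 and 9.13 CPM pre-molt (log2 change -1.35, SE 0.34, edgeR adjusted p = 0.0148). In each of these 3 peaks the lowest pre-molt library stood above the highest post-molt library. F5 lost its call without post-molt replicate 2 or without pre-molt replicate 2, with an adjusted p of up to 0.0821.

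The other 6 upstream peaks did not pass the test. They had mean reads of 26.5 to 72 per library, while F2, which passed, had 71. F1 was the deepest of the 6, with 4.05, 3.86 and 3.26 CPM post-molt, against 11.9, 7.63 and 3.57 CPM pre-molt (log2 change -1.05, edgeR adjusted p = 0.101). Its pre-molt replicate 3 fell inside the post-molt range, and without that library the peak passed (adjusted p = 0.0449). F6, F7, F9 and F11 gave log2 changes of -0.65, -1.11, -0.88 and -0.90 with edgeR adjusted p from 0.152 to 0.342. F3, only 204 bp wide, was the single linked peak with a positive value. It had 3.53, 1.34 and 2.26 CPM post-molt, against 3.25, 1.61 and 0.957 CPM pre-molt (log2 change 0.29, edgeR adjusted p = 0.799). The stages overlapped at F3, and the sign changed when post-molt replicate 1 or pre-molt replicate 3 was left out.

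Whether a peak passed went with its depth. Of the 10 linked peaks with a mean of at least 100 reads 8 fell, while 9.22% of all merged peaks of that depth did. Of the 12 shallower linked peaks 3 fell. As background, 4044 of all 104657 merged peaks fell, and 2690 of those 4044 were among the 29191 with at least 100 reads, so few of the shallower merged peaks fell. Mean reads of the 11 that fell ran from 64.5 to 369 (median 142) and those of the 11 that did not from 15 to 134 (median 40.3). The 11 that fell held 77.5% of the reads of all linked peaks. Over all merged peaks the median log2 change also declined at high depth, being -0.32 in the deepest of 10 equal depth classes and 0.04 in the shallowest. Across the 22 linked peaks, which share the same 6 libraries, the correlation of log2 change with log2 mean reads was weak (Pearson r = -0.33, Spearman rho = -0.34).

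**Figure D3:**
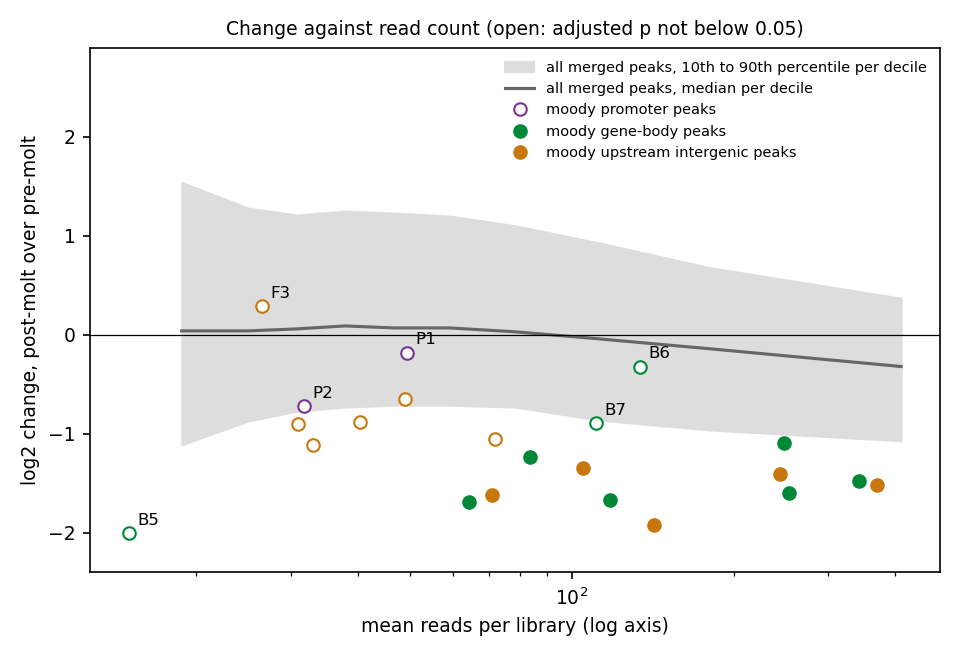
Each point is a moody-linked peak, plotted by its mean reads per library (x axis, log scale) and its log2 change, post-molt over pre-molt (y axis), over the median (line) and the 10th to 90th percentile (band) of all merged peaks in 10 depth classes. The shallowest of the 11 that fell had 64.5 mean reads, and B6, B7 and F1, with 134, 111 and 72, did not pass the test.

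Reads were then summed by class. The 9 intronic peaks together had 76.4, 51.7 and 64.8 CPM post-molt, against 152, 193 and 103 CPM pre-molt. Means were 64.3 ± 12.4 CPM post-molt and 150 ± 45.3 CPM pre-molt (SD, n = 3 each; log2 change -1.22, SE 0.28, edgeR adjusted p = 0.00932), a 2.33-fold lower sum with a 95% interval of -1.80 to -0.64 on the log2 scale. The call of the intronic sum was lost without post-molt replicate 2, where the log2 change was -1.08 and the edgeR adjusted p 0.0624. The 11 upstream peaks together had 54.2, 50.2 and 54.7 CPM post-molt, against 133, 166 and 97.2 CPM pre-molt. Means were 53 ± 2.46 CPM post-molt and 132 ± 34.3 CPM pre-molt (SD, n = 3 each; log2 change -1.31, SE 0.26, edgeR adjusted p = 0.00393), a 2.49-fold lower sum, and this call was kept under all 13 alternatives. Over the same kind of sums 3.72% of gene-body sums and 3.58% of flanking sums fell across all genes. In both classes every post-molt library lay below every pre-molt library, for which the exact two-sided permutation test gave p = 0.1, the smallest value that 3 against 3 libraries allow.

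The promoter sum was 6.4, 5.53 and 5.46 CPM post-molt, against 13, 3.6 and 6.11 CPM pre-molt. The pre-molt libraries stood on both sides of the post-molt libraries. Means were 5.79 ± 0.523 CPM post-molt and 7.56 ± 4.86 CPM pre-molt (SD, n = 3 each; log2 change -0.38, SE 0.38, edgeR adjusted p = 0.606), with a 95% interval of -1.19 to 0.43. Across all genes 3.85% of promoter sums fell. Pre-molt replicate 1 set the sign of the moody value, since without it the log2 change was 0.22. The promoter sum rested on 54 to 153 reads per library and the intronic sum on 655 to 2900, and the SE of the log2 change was 0.38 for the promoter sum and 0.28 for the intronic sum.

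**Figure D4:**
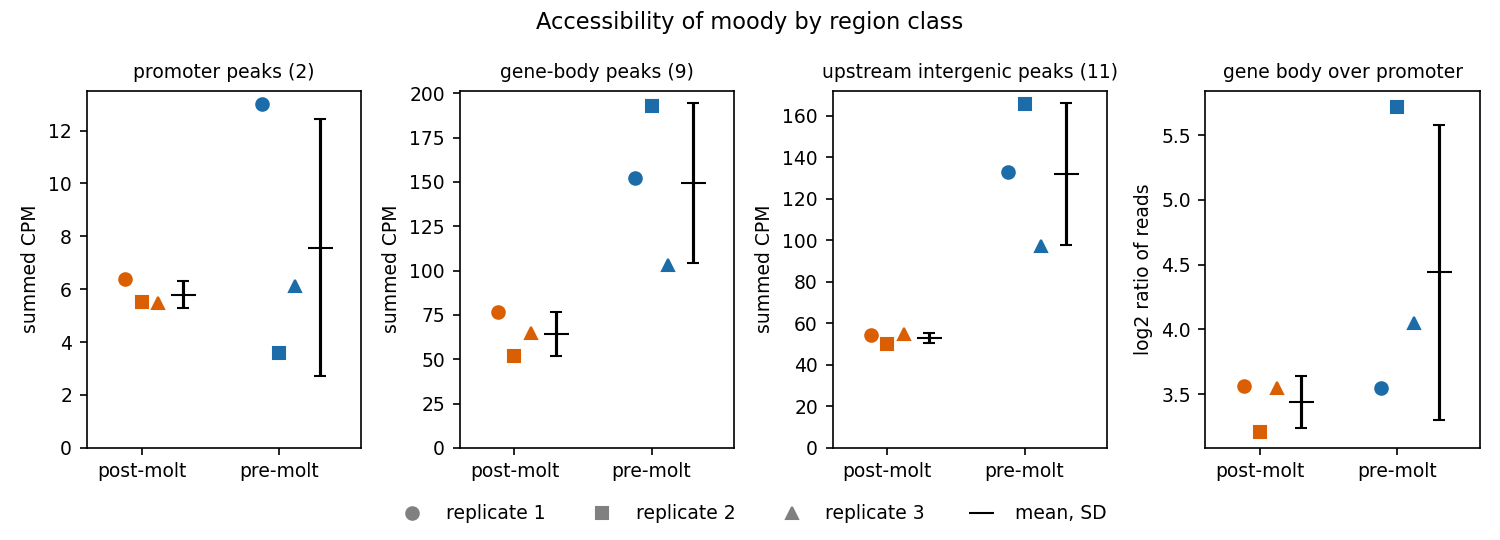
Points are libraries, post-molt left of pre-molt, and the black lines give the mean and SD (n = 3 each) of the promoter, gene-body and upstream sums in CPM and of the log2 ratio of gene-body to promoter reads. The gene-body and upstream sums do not overlap between stages, at 51.7 to 76.4 against 103 to 193 CPM and at 50.2 to 54.7 against 97.2 to 166 CPM, whereas the promoter sums and the ratios overlap.

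The gap between gene body and promoter was then tested directly, since a call in one class and none in the other does not show that the classes differ. The log2 ratio of intronic to promoter reads was 3.56, 3.21 and 3.55 post-molt, against 3.55, 5.72 and 4.05 pre-molt. Pre-molt replicate 2 stood apart with the highest ratio, and pre-molt replicate 1 lay within the post-molt range. Means were 3.44 ± 0.20 post-molt and 4.44 ± 1.14 pre-molt (SD, n = 3 each), a difference of -1.0 (SE 0.53, 95% interval -2.24 to 0.23, limma adjusted p = 0.388 over 5288 genes with both classes). The exact permutation test gave p = 0.3. Only 0.0378% of these genes passed in either direction, and the median difference over them was 0.09. Without pre-molt replicate 2 the difference was -0.36, and without pre-molt replicate 1 it was -1.45, neither past the threshold. A difference between the gene body and the promoter of moody was therefore not shown at this depth and number of libraries.

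The level within the pre-molt stage was uneven across libraries. Pre-molt replicate 2 had the highest CPM in 14 of the 22 linked peaks and in 9 of the 11 that fell, pre-molt replicate 1 in 7 of the 22, and post-molt replicate 1 in 1, which was F3. The lowest CPM lay in a post-molt library for 19 of the 22 peaks. No share over all merged peaks is set beside these counts, and whether they are particular to moody was not tested. The 11 that fell were themselves chosen by higher pre-molt reads. Without pre-molt replicate 2, 7 linked peaks fell, beside 2.51% of all merged peaks. Without post-molt replicate 2, 6 linked peaks fell, beside 1.53% of all merged peaks. B2, B9, F2, F4, F8 and F10 passed under all 13 alternatives, which included leaving out each library. The share of these differences that depth or composition of single libraries carried was not tested.

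The authors' own peak lists, called per library, were compared next by the presence of a peak. Over 22 merged peaks and 3 libraries of a stage there were 66 possible calls, of which 32 were made post-molt and 50 pre-molt. For the 11 peaks that fell, 23 of 33 possible calls were made post-molt and 31 of 33 pre-molt. These 11 were chosen by lower post-molt reads in the same libraries, so their calls are a description and no test. No such count over all merged peaks is set beside these numbers, and whether they are particular to moody was not tested. Of the 22 peaks 7 were called in all 6 libraries. P1 was called in 2 post-molt and 2 pre-molt libraries, and P2 in 0 post-molt libraries and in 1 pre-molt library, the one with its highest count. Library depth was greatest in pre-molt replicate 2, and its share in these numbers was not tested.

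Linking by the nearest start leaves the far end of moody to its neighbour. A further 8 merged peaks lay inside moody but were linked to evm.TU.CM024100.1.414, whose nearer end lies 12.6 kb beyond the 3′ end of moody. Of these 8, 6 were intronic and 2 exonic, 7 had negative log2 changes, and the median was -0.82. A single one passed, the intronic peak at 16802642 to 16803573 in the second intron, 63.9 kb from the start of moody. It had 9.3, 2.29 and 6.93 CPM post-molt, against 12.3, 34.1 and 14.9 CPM pre-molt (log2 change -1.73, SE 0.44, edgeR adjusted p = 0.014). Its call was lost without post-molt replicate 2 and without pre-molt replicate 2, and the other settings are not given here for this peak. With these 8 peaks included, 7 of 17 peaks inside the gene outside its promoter fell, of which 6 were the linked intronic peaks already given. Over the whole set 4.47% of intronic and 3.86% of all merged peaks fell. Of the 8 peaks linked to the neighbour, the 7 that did not pass were shallow, with mean reads of at most 44.5.

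Peaks of the flanking genes served as the local background. The 5 nearest genes with linked peaks on each side of moody had 32 linked peaks, of which 2 fell and 1 rose, with a median log2 change of 0.02. With the 8 peaks inside moody left out, a choice made after seeing the data, 24 peaks remained, of which 1 fell and 1 rose, with a median of 0.37. Of these 24 peaks 13 were of the promoter class, with 0 lower, while of the 22 linked peaks of moody 2 were. The farthest of the flanking genes lay 454 kb from moody. This background thus differed from the linked peaks in class and distance, and whether the fall is confined to moody was not tested. The one that fell lay at 16979743 to 16980560, 112 kb upstream of moody in intergenic DNA, and was linked to evm.TU.CM024100.1.416. It held 206, 160 and 143 reads post-molt, against 277, 614 and 338 reads pre-molt (log2 change -1.17, SE 0.33, edgeR adjusted p = 0.0244). Without post-molt replicate 2 or without pre-molt replicate 2, 0 of the 32 peaks fell. Without post-molt replicate 3 or without pre-molt replicate 3, 1 of the 32 fell. The one that rose was a promoter-class peak of evm.TU.CM024100.1.425, with 77, 76 and 75 reads post-molt, against 30, 36 and 34 reads pre-molt (log2 change 1.25, edgeR adjusted p = 0.0283). On the whole sequence CM024100.1, 3.87% of 1784 merged peaks fell. The linked peaks of moody that fell spanned 93 kb, from 16829757 to 16922718. All 21 merged peaks in that stretch were linked to moody, so they add nothing to the local background.

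Beside the other 7 genes that the study kept from its receptor lists, partly on these libraries, moody had a different distribution of calls over classes. Among them, the metabotropic glutamate receptor GRM7 rose in the gene body, at 35 ± 19.8 CPM post-molt and 6.38 ± 0.911 CPM pre-molt (SD, n = 3 each; log2 change 2.46, edgeR adjusted p = 0.000689), and no promoter-class peak is linked to it. The methuselah-type receptor mth2 rose in all 3 classes, by 1.09 at the promoter, 1.48 in the gene body and 1.53 in the flank on the log2 scale (edgeR adjusted p = 0.0191, 0.00191 and 0.00158). SSTR2, named for a somatostatin receptor, fell like moody in its flank (log2 change -1.35, edgeR adjusted p = 0.00322) and, unlike moody, at its promoter, with 18.6 ± 5.7 CPM post-molt and 64.5 ± 15.1 CPM pre-molt (SD, n = 3 each; log2 change -1.79, edgeR adjusted p = 0.00124). Its single gene-body peak gave -0.55 and did not pass (edgeR adjusted p = 0.421).

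Of the 5 other receptor genes with gene-body peaks 0 fell and 2 rose, of the 5 with promoter peaks 1 fell and 2 rose, and of the 6 with flanking peaks 1 fell and 2 rose. Over all genes 7.93% of gene-body sums, 5.42% of promoter sums and 6.81% of flanking sums rose. The gene-body sum of moody was thus the only one of 6 in this list called lower. Whether moody differed from these receptors was not tested.

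**Figure D5:**
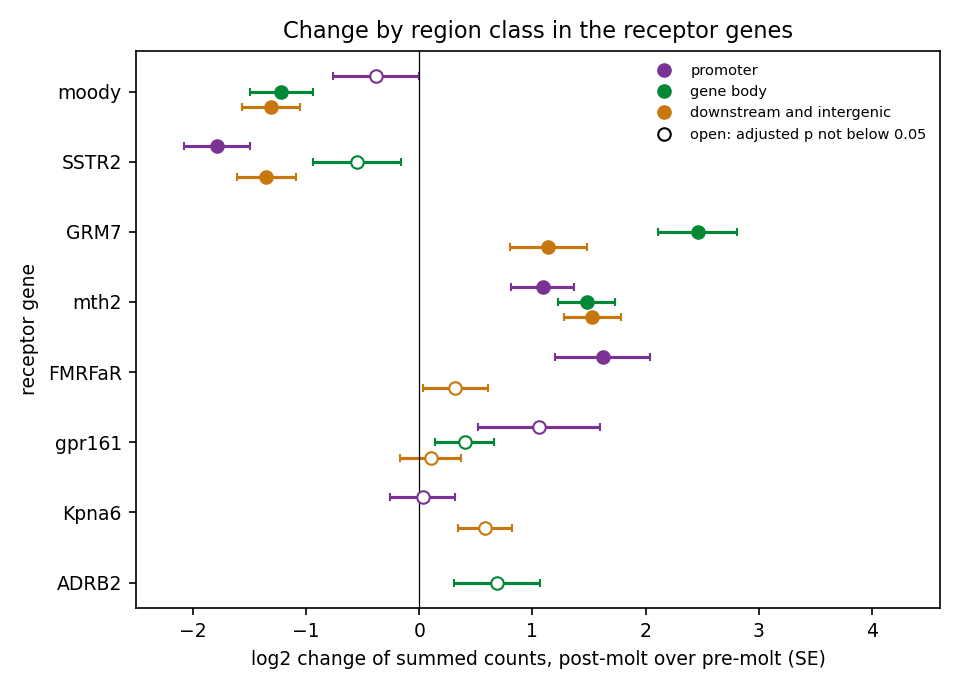
Log2 changes, post-molt over pre-molt, with SE bars are shown for the summed promoter, gene-body and flanking peaks of moody and of the other 7 receptor genes, each point being 1 gene and class. The gene-body and flank values of moody, -1.22 and -1.31, lie more than 4 SE below 0 (SE 0.28 and 0.26), and its promoter value of -0.38 lies 1 SE (0.38) from it.

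Genes whose gene-body reads ran most like those of moody were found by Pearson's r of log2 CPM over the 6 libraries, among 3999 genes with a mean of at least 100 gene-body reads. The choice used the same 6 values in which moody is lower post-molt, so the stage values of these genes are a description and no test. The closest was evm.TU.CM024119.1.539 (r = 0.999), whose gene-body sum was 21.5 ± 5.12 CPM post-molt and 56.3 ± 18.5 CPM pre-molt (SD, n = 3 each). The next were evm.TU.CM024167.1.393 (r = 0.996), at 128 ± 15.9 CPM post-molt and 223 ± 47.1 CPM pre-molt, and evm.TU.CM024165.1.349 (r = 0.995), with a log2 change of -1.18. With only 6 libraries such values are common, and 145 of the 3999 genes reached r of at least 0.95. The closest gene, at 20542270 to 20543419, and the second, at 14412296 to 14414461, are shorter than the annotation's promoter reach of 3000 bp. A peak inside either would be of the promoter class. Their gene-body sums therefore hold peaks that lie inside other genes and are only linked to them. The files give no names for these 3 genes.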

How the data were processed

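ATAC-seq was performed on muscle nuclei of 3 post-molt and 3 pre-molt crabs, sequenced as 150 base paired reads. The submitters' processing notes name BWA and MACS2, without versions. For every merged peak the authors deposited a raw read count in each library and a fold enrichment, a ratio computed from the count plus 1. In each deposited peak list, the authors give a summit fold enrichment and a −log10 q-value. The authors' log2 fold changes and their p-values and q-values between stages were not used, nor were 12 further per-library columns. The study's methods describe calling peaks per sample with duplicates kept. The sources used here do not say how reads were assigned to merged peaks or whether those counts include PCR copies, so counting limits cover counting error only.

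Counts of all 104657 merged peaks were fitted without a filter in edgeR 4.0.16 (R 4.3.3) with TMM scaling and the quasi-likelihood test, adjusted by Benjamini-Hochberg, with a threshold of 0.05. The same fit was run on counts summed per gene and class (promoter, gene body, flank), giving 30902 sums. The class was taken from a peak's annotation and the gene from its link, so a gene-body sum can hold peaks inside another gene. The gene-body to promoter ratio used limma 3.58.1 on log2 counts plus 1. CPM used TMM-scaled totals. Alternatives were DESeq2 1.42.0 size factors and tests, library totals, median centring, a filter on low counts, limma, a replicate block, and leaving out each library. The scripts were tested on simulated data. All linked peaks were named, with 5 genes on each side, the study's other 7 receptors, and the 3 genes nearest by r. The members and lists were chosen with earlier results of these data known. The lists of fly pathway and cell type genes were not used, since the files pair no names with identifiers. The RefSeq table at hand is of another assembly, and no genome sequence was used.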

Additional observations from a re-analysis of the deposited data

How the results depend on the processing

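All 13 other settings kept the direction of the gene-body and upstream sums. The number of linked peaks that fell, 11, was 9 to 11 under other scalings, filters and tests, among them 9 with library totals, and ran from 6 to 11 when 1 library was left out. The number that rose was 0 in the 13 settings in which it was counted. Library totals moved the median log2 change of all merged peaks to 0.13 and median centring to -0.16, against -0.03, and relative to it the median of the linked peaks was -1.15 under both. The upstream sum ran from -1.55 to -1.12 without 1 library and stayed past the threshold. The gene-body sum ran from -1.48 to -0.99 and was lost without post-molt replicate 2 (-1.08, edgeR adjusted p = 0.0624). The promoter sum ran from -0.72 to 0.22, and the ratio of gene body to promoter from -1.45 to -0.36, not past the threshold in any setting. Without 1 library, P1 ran from -0.50 to 0.05 and P2 from -1.12 to 0.44, both turning without pre-molt replicate 1, and F3 ran from -0.11 to 0.85, turning without post-molt replicate 1 and, to -0.03, without pre-molt replicate 3. The cause was not tested. Of the flanking genes' peaks 2 fell, 0 to 2 without 1 library, and 1 without the peaks inside moody, an alternative chosen after seeing the data.

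Deviations of the libraries from their stage mean gave same-number correlations of -0.088, -0.104 and -0.033 and other pairs up to 0.134. Such deviations cancel within a stage of 3 libraries, which constrains these values. Whether replicate numbers pair the libraries was therefore not tested. With a replicate block 10 linked peaks fell, B3 being lost (edgeR adjusted p = 0.08), and the sums were -1.19 in the gene body, -0.20 at the promoter and -1.28 upstream. At a −log10 q-value of at least 5, the authors' lists held 19 post-molt and 43 pre-molt calls in place of 32 and 50, and with an overlap of at least 50% of the merged peak 24 and 47. The pre-molt libraries spread widely at the promoter, at 13, 3.6 and 6.11 CPM, and 3 libraries a stage cannot reach an exact permutation p below 0.1.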
